A study of Mus musculus with 9 samples.

Results

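The genes described here mark the delta and PP cells of the pancreatic islet: Sst, Hhex, Rbp4, Ghsr, Casr, Ptprz1 and Spock3 for delta cells, and Ppy and Pyy for PP cells. The 9 genes were chosen by name as markers of these cell types from a table of 22048 genes, with earlier results of these data known. All 9 of 9 were in the table, and 7 passed the expression filter and were among the 9739 genes tested. Ghsr and Spock3 did not pass it and are given as read counts.

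Islets from outbred ICR mice were cultured for 3 days in RPMI medium with serum and antibiotics at 11.8 mM glucose (the control), 20 mM or 35 mM, with 3 libraries at each concentration. No group carried a transgene or a drug, the islets came from 9 mice in all, and their age is not stated. For the highest concentration the description of the treatment says 25 mM, whereas sample titles, characteristics and the stated design say 35 mM, the value used here. The labels do not tie each library to a mouse of its own, so p-values reflect the spread among these libraries alone, which may be technical.

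Delta cells release somatostatin, a peptide that acts on neighbouring beta and alpha cells and restrains the release of insulin and glucagon. PP cells release pancreatic polypeptide, which acts on appetite and on exocrine secretion. Both cell types are minor partners of the beta cells in mouse islets, and peptide YY, a relative of pancreatic polypeptide, is made by PP cells and by other islet endocrine cells.

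Gene counts per library ranged from 3228648 to 4559561, with 13366 to 13923 genes detected. Beta cell markers took 50.6% to 59.0% of the gene counts of a library, alpha cell markers 1.42% to 2.05%, acinar markers 0.373% to 1.40%, and Schwann and glial markers 0.00476% to 0.0134%. No marker on any of these lists was at 0 in all libraries, but the beta cell marker Mafa had 1 read in all and the acinar marker Amy2a5 had 2. Each library was the sum of 3 barcoded sub-libraries of 1 sample. A pair of them stood apart in an insulin gene: Ins1 took 11.8% of the counts in 1 sub-library of 11.8 mM replicate 1 against 26.1% and 26.5% in the others of that sample, and Ins2 took 10.6% in 1 of 35 mM replicate 1 against 29.2% and 28.9%. Results are given with all sub-libraries, and also without these 2 where that moved a value by more than 1.5 times or turned its sign. Ptprz1 did not pass the expression filter without them.

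Of the delta cell markers Sst, Rbp4 and Casr were well detected, Hhex and Ptprz1 were low, and Ghsr and Spock3 were close to the limit of detection. Both PP cell markers were abundant. Sst was the gene with the 5th highest mean level in the islets, Ppy the 13th and Pyy the 16th. Rbp4 ranked 202, Casr 2477, Hhex 8671 and Ptprz1 9451. These ranks compare reads per transcript end, since the assay tags the 3' end of a transcript and its counts do not grow with transcript length. Sst, Ppy and Pyy together took 1.52% to 2.69% of the gene counts of a library, with a median of 2.29%. The lowest of these shares was in 11.8 mM replicate 3 and the highest in 11.8 mM replicate 1. On this unscaled share the control libraries thus bracketed all those at raised glucose. On the scaled levels given below, Sst was highest in 35 mM replicate 2, so the bracketing depended on the scale. In RNA from whole islets, fewer cells of a type and less RNA per cell cannot be told apart.

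Ppy and Pyy are neighbours on the minus strand of chromosome 11 (GENCODE M21, GRCm38). Ppy lies at chr11:102099930-102101319 and Pyy at chr11:102106676-102107832, with 5356 bases between them. Their promoters are shown because their levels moved together across the libraries (below), and a 30-base stretch of the Sst promoter because it holds the cAMP response element for which that gene is known. The letters are those of RefSeq on GRCm38.p6, minus strand, from chr11:102101320-102101569 for Ppy, chr11:102107833-102108082 for Pyy and chr16:23890875-23890904 for Sst. Capitals mark a TATAAA match in Ppy and a TGACGTCA match in Sst.
Ppy: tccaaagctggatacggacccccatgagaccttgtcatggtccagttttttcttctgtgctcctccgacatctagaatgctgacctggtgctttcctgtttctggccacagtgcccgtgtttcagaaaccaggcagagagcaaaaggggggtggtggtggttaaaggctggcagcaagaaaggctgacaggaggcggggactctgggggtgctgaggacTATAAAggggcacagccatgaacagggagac
Pyy: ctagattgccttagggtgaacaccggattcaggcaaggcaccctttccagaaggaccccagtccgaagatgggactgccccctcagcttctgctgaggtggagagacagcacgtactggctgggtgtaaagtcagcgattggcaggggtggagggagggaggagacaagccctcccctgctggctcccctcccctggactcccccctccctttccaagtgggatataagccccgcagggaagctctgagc
Sst: cgcctccttggcTGACGTCAgagagagagt

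The Ppy match began 31 bases before the annotated start. TATAAA was found on the coding strand in 7.59% of 32851 promoter windows of 250 bases. An Rbp4 window also held it, 28 bases before the start. The Sst match began 48 bases before the RefSeq start, and TGACGTCA, searched on both strands, was in 1.55% of the windows. The shorter TGACG, which overlaps it, was in 17.8%. TAAT, the core that many homeodomain factors bind, was in 54.9% of windows on either strand. Windows of Sst, Casr, Rbp4, Ghsr and Ptprz1 held it, and those of Ppy, Pyy, Hhex and Spock3 did not. CACGTG, an E-box searched on both strands, was in 6.02% and in no window of the 9 members. A match is a run of letters and not a measured binding site. All 9 members had a promoter entry. In GENCODE M21 the Sst gene, at chr16:23889573-23890958, begins upstream of the RefSeq start, so that 114 bases of the RefSeq window lie within it.

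None of the 7 tested markers passed the test for a change with glucose. The question in each comparison was whether a marker's level differed between islets kept at 2 concentrations, and a change was called at an adjusted p under 0.05 (edgeR's quasi-likelihood test, adjusted after Benjamini and Hochberg over all tested genes). At 35 against 11.8 mM, 0 of 7 were called, against 0.863% of all tested genes. At 20 against 11.8 mM, 0 of 7 were called, against 0.185%, and at 35 against 20 mM 0 of 7, against 0.0308%. A test of any difference among the 3 concentrations also called 0 of 7, against 0.606% of genes. DESeq2, which gives no adjusted p to genes its own filter removes, called 0 of the 5 members with one at 35 against 11.8 mM (background 1.94%) and 0 of 4 at 20 against 11.8 mM (4.05%). It called 0 of 9 at 35 against 20 mM (0.0188%) and 0 of 5 for any difference (1.44%). At an unadjusted p under 0.05 by edgeR, 1 of 7 members passed at 35 against 11.8 mM, which was Rbp4, beside 10.5% of all tested genes. None of the 7 passed at 20 against 11.8 mM, beside 7.97% of genes, and at 35 against 20 mM 0 of 7, beside 5.29%. Shares of this size in so few members are near the background. Levels are given in CPM, read counts per library scaled to a common size. The median log2 fold change of the 7 was -0.02 at 35 mM and 0.07 at 20 mM against 11.8 mM, and -0.18 at 35 against 20 mM. Over all genes tested the medians were -0.00266, -0.00159 and -0.00116.

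**Figure D1:**
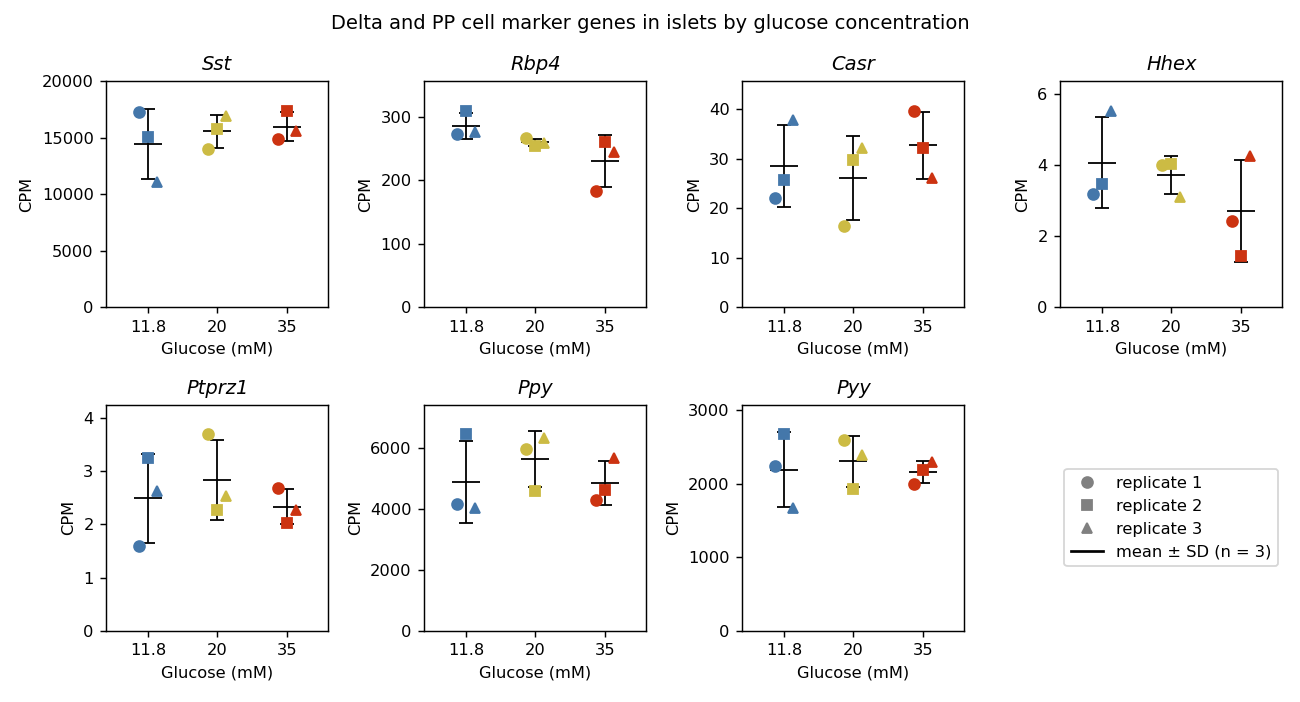
Level of each tested marker gene in CPM (linear axis from 0) by glucose concentration in mM, with 1 point per library and the mean ± SD of 3 libraries as bars. Groups overlap in most panels; for Rbp4 the 3 libraries at 11.8 mM, from 272 to 310 CPM, lie above those at 20 and at 35 mM.

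Sst, which encodes the somatostatin precursor, stood at 17244, 15051 and 11104 CPM in replicates 1, 2 and 3 at 11.8 mM, relative to the library size scaled by TMM, a normalization that sets the bulk of genes equal. Its levels were 14007, 15746 and 16938 CPM at 20 mM and 14889, 17402 and 15601 CPM at 35 mM. The groups overlapped, and the control group alone held both a library near the top and the lowest of all 9. Means were 14466 ± 3111, 15564 ± 1474 and 15964 ± 1295 CPM (SD, n = 3). The log2 fold change was 0.14 ± 0.15 (SE) at 35 against 11.8 mM, with a 95% interval of -0.16 to 0.44 (adjusted p = 0.830 by edgeR). At 20 against 11.8 mM it was 0.11, with an interval of -0.20 to 0.41. Without 11.8 mM replicate 3 these values became -0.02 and -0.06, so the sign of the Sst difference rested on 1 library.

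Rbp4 encodes the plasma carrier of retinol and is enriched in mouse delta cells. It was measured at 272, 310 and 275 CPM at 11.8 mM, at 266, 254 and 259 CPM at 20 mM, and at 184, 261 and 245 CPM at 35 mM. Every control library was above every library at raised glucose, and 35 mM replicate 1 was the lowest of all. At 35 against 11.8 mM the libraries did not overlap in 1 of 7 members, which was Rbp4, and in 14.9% of all tested genes. The same held at 20 against 11.8 mM, where the background was 12.8%, and in 0 of 7 members at 35 against 20 mM, where it was 11.9%.

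The log2 fold change of Rbp4 at 35 against 11.8 mM was -0.32 ± 0.13, with a 95% interval of -0.59 to -0.04 (unadjusted p = 0.0258 and adjusted p = 0.388 by edgeR), so it did not pass. Without 35 mM replicate 1 it was -0.18, a move of more than 1.5 times. At 20 against 11.8 mM it was -0.14, and at 35 against 20 mM -0.18. The separation of the controls from the 20 mM libraries depended on the scaling. Plain CPM is relative to the unscaled gene counts. On this scale Rbp4 stood at 249 to 309 at 11.8 mM, 250 to 267 at 20 mM and 197 to 248 at 35 mM. The 11.8 and 20 mM libraries overlapped on it, and the 20 and 35 mM libraries did not. The 35 mM libraries stayed below the 11.8 mM libraries, though only by a margin of 248.4 against 248.6.

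For each 1000 Sst reads there were 15.8, 20.6 and 24.8 Rbp4 reads at 11.8 mM, 19.0, 16.1 and 15.3 at 20 mM, and 12.3, 15.0 and 15.7 at 35 mM. This ratio needs no library scaling. Its highest value, in 11.8 mM replicate 3, was in the library with the least Sst, and the 35 mM libraries were all below the 11.8 mM libraries, by a margin of 15.7 against 15.8.

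Casr encodes the calcium-sensing receptor, a G protein-coupled receptor that is also present on other islet cells. It was at 22.1, 25.7 and 37.9 CPM at 11.8 mM, 16.3, 29.8 and 32.1 CPM at 20 mM and 39.7, 32.2 and 26.1 CPM at 35 mM. The groups overlapped throughout. The log2 fold change at 35 against 11.8 mM was 0.20 ± 0.23 (95% interval -0.29 to 0.69; adjusted p = 0.856 by edgeR), and 0.02 without the 2 sub-libraries that stood apart. Without them the value at 20 against 11.8 mM went from -0.11 to -0.18, and that at 35 against 20 mM from 0.32 to 0.20. In 35 mM replicate 1 the sub-library with low Ins2 held 70 Casr reads, and the others 40 and 38.

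Hhex encodes a homeodomain transcription factor needed for delta cell identity. It had 115 reads over all 9 libraries, at 3.20, 3.47 and 5.54 CPM at 11.8 mM, 4.0, 4.04 and 3.10 CPM at 20 mM, and 2.42, 1.45 and 4.26 CPM at 35 mM. The lowest values were at 35 mM, but the third library there lay within the range of the controls. Its log2 fold change at 35 against 11.8 mM was -0.56 ± 0.43 (95% interval -1.43 to 0.30; adjusted p = 0.720 by edgeR). Leaving out 1 library moved it to between -1.03 (without 35 mM replicate 3) and -0.27 (without 35 mM replicate 2), and leaving out the 2 sub-libraries gave -0.40. The value at 20 against 11.8 mM was -0.11, and 0.02 without the 2 sub-libraries.

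Ptprz1 encodes a receptor-type tyrosine phosphatase that binds pleiotrophin and contactin. Its 84 reads gave 1.60 to 3.24 CPM at 11.8 mM, 2.27 to 3.70 CPM at 20 mM and 2.03 to 2.68 CPM at 35 mM. The ranges overlapped, and the interval of the change at 35 against 11.8 mM, from -1.09 to 0.88, allowed a change of either sign.

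Ghsr, the receptor of the hormone ghrelin, had 0, 0 and 0 reads in the 11.8 mM libraries, 2, 0 and 0 at 20 mM, and 1, 1 and 0 at 35 mM. With 0 reads of 11663627 gene counts at 11.8 mM a level of up to 0.257 plain CPM is allowed (3 counts over the group), and both other groups lay below such a floor, so no difference was detectable at this depth. Spock3, which encodes testican 3, a proteoglycan of the SPARC family, had 8 reads in all, 1, 2 and 1 at 11.8 mM, 2, 0 and 0 at 20 mM and 0, 1 and 1 at 35 mM. No fold is given for either gene. Such floors take each read as a separate molecule and leave out variation between samples. Amplified copies of 1 molecule were counted as separate reads, so the floors understate the counting error.

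Ppy, which encodes the precursor of pancreatic polypeptide, stood at 4171, 6444 and 4017 CPM at 11.8 mM, 5964, 4582 and 6331 CPM at 20 mM and 4276, 4618 and 5658 CPM at 35 mM. The ranges of the 3 groups overlapped widely. The log2 fold change was -0.01 ± 0.17 at 35 against 11.8 mM (95% interval -0.35 to 0.34; adjusted p = 0.995 by edgeR) and 0.21 ± 0.17 at 20 against 11.8 mM (-0.14 to 0.55; adjusted p = 0.830 by edgeR). Without 11.8 mM replicate 2 the values were 0.25 and 0.46. Without the 2 sub-libraries that stood apart the first was -0.037, from -0.0078.

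Pyy encodes peptide YY. It was at 2241, 2675 and 1665 CPM at 11.8 mM, 2601, 1926 and 2389 CPM at 20 mM, and 1998, 2188 and 2296 CPM at 35 mM. The control libraries again spanned all others. Its log2 fold change was -0.02 ± 0.15 at 35 against 11.8 mM (95% interval -0.33 to 0.28; adjusted p = 0.983 by edgeR).

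**Figure D2:**
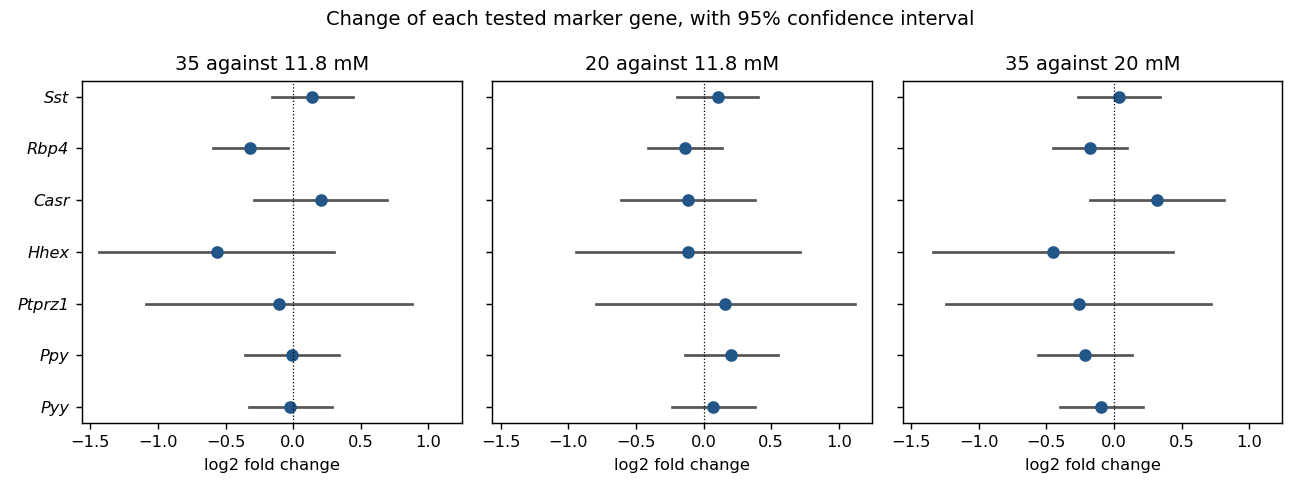
Log2 fold change of the 7 tested markers in the 3 pairwise comparisons, with 95% confidence intervals from the edgeR fit as lines and 0 as a dotted line. The interval of Rbp4 at 35 against 11.8 mM, -0.59 to -0.04, is the one that does not hold 0; after adjustment over all genes it was not called.

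The intervals show what the design could resolve. For the 3 hormone genes at 35 against 11.8 mM they ran at the widest from -0.35 to 0.44 on the log2 scale, whereas for Hhex and Ptprz1 they reached past -1. Over all tested genes the smallest change called at 35 against 11.8 mM was 0.508. A p that misses the threshold does not show that a marker's level was equal.

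Ppy and Pyy varied together from library to library. Over the 9 libraries Pearson's r of their log levels was 0.83 and Spearman's rho 0.87; r was 0.84 with the group means removed and 0.78 without the 2 libraries farthest from the median of Ppy. For each Ppy read there were 0.537, 0.415 and 0.415 Pyy reads at 11.8 mM, 0.436, 0.420 and 0.377 at 20 mM and 0.467, 0.474 and 0.406 at 35 mM. The points share each library's scaling and depth, and the correlation is a description. Sst did not follow them: its r was 0.22 with Ppy, and 0.49 with Pyy, which became -0.25 without the 2 libraries farthest from the median of Sst.

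**Figure D3:**
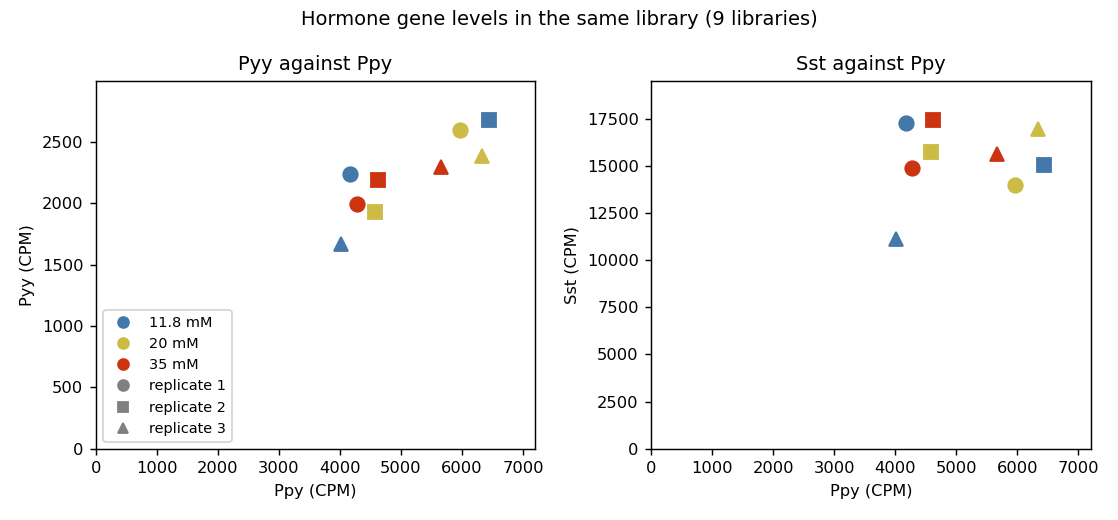
Pyy against Ppy (left) and Sst against Ppy (right) in CPM, with 1 point per library, colours for glucose and shapes for replicates. Pyy is higher where Ppy is higher (r = 0.83), and 11.8 mM replicate 3 has the lowest level of all 3 genes.

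The delta cell genes did not rank the libraries alike. Sst had r = -0.07 with Rbp4, -0.17 with Casr, -0.50 with Ptprz1 and -0.68 with Hhex. Without the 2 libraries farthest from the median of Sst these became 0.17, 0.26, -0.84 and -0.18. Casr had r = 0.87 with Ins1, an insulin gene of beta cells, and -0.71 with Gcg, the glucagon gene of alpha cells. Without the 2 libraries farthest from the median of Casr its values were 0.53 and -0.50. In 11.8 mM replicate 3, the library with the lowest Sst, Ppy and Pyy, Ins2 and Hhex were at their highest. Ins2 stood there at 414254 CPM with TMM scaling, and took 37.4% of the unscaled gene counts. The part of the insulin share in those low values was not tested.

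Among 5326 genes whose mean reached 10 CPM, those most like Sst over the 9 libraries by Pearson's r of log2 levels included Lima1 (0.96) and Kpnb1 (0.95). The nearest to Rbp4 were Zfp60 (0.96), Atp6v1c1 (0.94) and Cd9 (0.94), and the nearest to Casr were Sesn3 (0.90), Zbtb18 (0.90) and Lias (0.90). For Ppy they were Tuba1c (0.95), Nudt18 (0.93) and Lcmt1 (0.90), and those for Pyy included Cd24a and Yeats4, both at 0.89. Pyy ranked 15 in likeness to Ppy, and Ppy 14 in likeness to Pyy. With 9 points and 5326 genes, values of this size are a description of these libraries.

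The 3 barcoded sub-libraries of a sample give a measure of the spread within samples, taken here on plain CPM. For Ppy the coefficient of variation (CV) was 3.52% within a sample (median over samples) and 16.4% among samples of a group (median over groups), so samples differed by more than the sub-libraries of 1 sample. Pyy had 7.22% and 15.97%, Sst 5.55% and 7.78%, and Rbp4 8.24% and 11.1%. On this unscaled measure Sst spread by 32.8% among the 11.8 mM samples and by 2.62% among those at 35 mM. With TMM scaling these groups were closer in spread, at 14466 ± 3111 and 15964 ± 1295 CPM (SD). The CV of Casr was 27.4% within a sample and 25.2% among samples, and that of Hhex 55.6% and 22.7%. A sub-library holds fewer reads than a sample, so the values within and among samples cannot be compared directly. Counting reads alone gives Casr a CV of 16.8% in a sub-library and 9.68% in a sample, and Hhex 48.5% and 28.0%. The CV among samples was above the counting value for Casr and below it for Hhex. The counting values take each read as a separate molecule. Amplified copies were not collapsed, so they are lower bounds of the counting error.

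**Figure D4:**
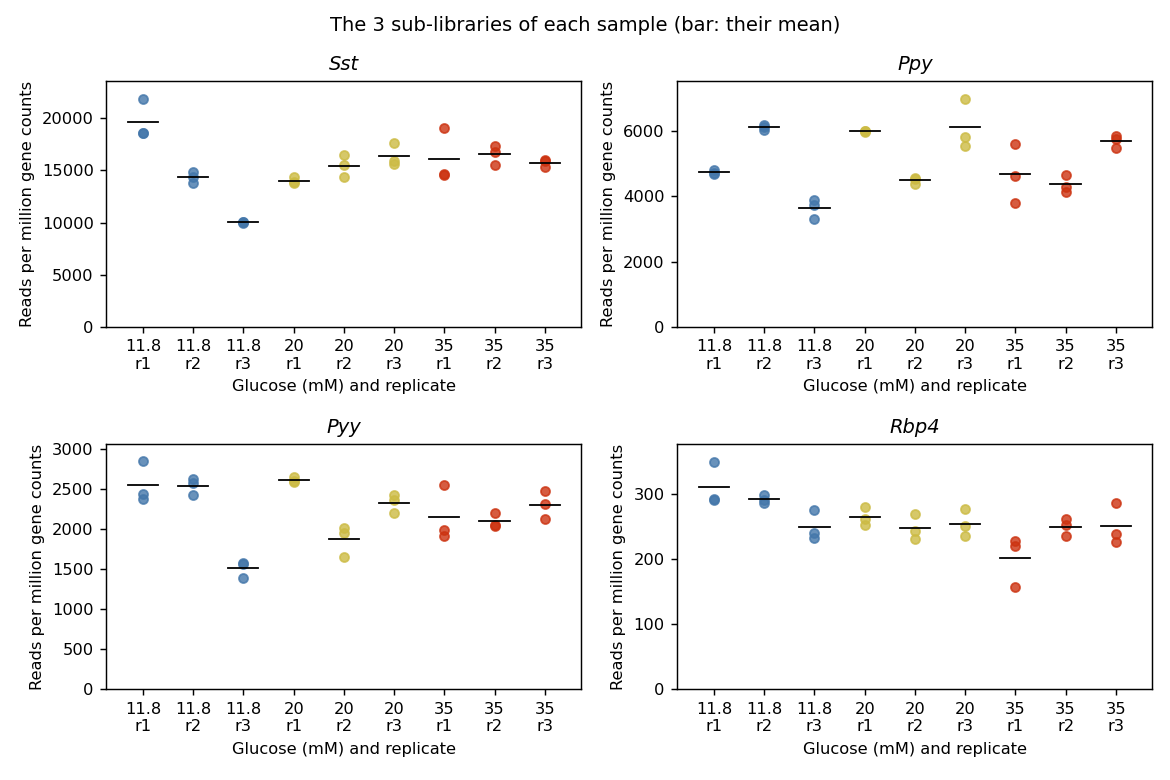
Plain CPM, relative to unscaled gene counts, in the 3 sub-libraries of each sample for Sst, Ppy, Pyy and Rbp4, by glucose in mM and replicate (r1 to r3), with the mean as a bar. The 3 sub-libraries of 11.8 mM replicate 3 lie together at 9975 to 10065 for Sst, below all others; 1 sub-library of 35 mM replicate 1 has the lowest Rbp4, at 158.

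In 35 mM replicate 1, Rbp4 stood at 220, 158 and 227 plain CPM in the sub-libraries. The lowest of these was not the sub-library that stood apart in Ins2, and without that one and its counterpart at 11.8 mM the log2 fold change at 35 against 11.8 mM was -0.31.

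Genes around these markers were also described, from lists chosen by function with earlier results of these data known. Of 16 genes that carry, make or sense retinoids around Rbp4, 6 were tested. At 35 and at 20 against 11.8 mM 1 of the 6 was called, beside 0.863% and 0.185% of all tested genes. Ttr, which encodes transthyretin, the partner of Rbp4 in plasma and also a marker of alpha cells, was at 910, 962 and 940 CPM at 11.8 mM, 1563, 1288 and 1397 CPM at 20 mM and 1280, 1497 and 1708 CPM at 35 mM. All libraries at raised glucose were above all controls. Ttr rose by 0.67 ± 0.13 at 35 against 11.8 mM (adjusted p = 0.00527 by edgeR) and by 0.60 ± 0.13 at 20 against 11.8 mM (adjusted p = 0.0489). The call at 35 mM was lost without 35 mM replicate 3 (adjusted p = 0.0617), and that at 20 mM without any 1 of the 9 libraries (adjusted p = 0.0517 to 0.352). The other 5 tested genes of this list were not called, and its median log2 fold change was 0.291 at 35 mM.

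Of 8 genes of peptide precursor processing, 7 were tested. At 35 and at 20 against 11.8 mM 1 of these was called, beside 0.863% and 0.185% of all tested genes. Pcsk1, a prohormone convertase of beta and other endocrine cells, was at 121, 121 and 131 CPM at 11.8 mM, 244, 195 and 190 CPM at 20 mM and 185, 205 and 209 CPM at 35 mM. It rose by 0.68 ± 0.13 at 35 mM (adjusted p = 0.00500 by edgeR) and by 0.75 ± 0.13 at 20 mM (adjusted p = 0.00543), and the latter call was lost without 20 mM replicate 1 (adjusted p = 0.0848).

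No gene of the other lists was called in any comparison. Of 15 islet transcription factors 14 were tested. Isl1, a LIM homeodomain factor of all islet endocrine cells and one of the delta cell list, stood at 61.3, 64.3 and 68.8 CPM at 11.8 mM, 66.5, 63.7 and 61.2 CPM at 20 mM and 47.8, 50.8 and 54.3 CPM at 35 mM. The 35 mM libraries were below the other 6, with a log2 fold change of -0.35 ± 0.14 against 11.8 mM that did not pass (adjusted p = 0.336). Of 10 other delta cell genes 7 were tested, with a median of -0.01 at 35 mM, and Arg1, arginase 1, stood at -0.38 ± 0.17 (adjusted p = 0.418).

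Of 8 other PP cell genes 6 were tested, with a median of -0.15 at 35 mM. Fxyd6, a regulator of the sodium pump, stood at -0.32 ± 0.17 (adjusted p = 0.531), and Etv1, an ETS factor, at 0.28 ± 0.17 at 20 mM (adjusted p = 0.729). Ucn3, the beta cell peptide that drives somatostatin release, stood at 423, 364 and 468 CPM at 11.8 mM and 301, 318 and 318 CPM at 35 mM. These groups did not overlap, and the log2 fold change of -0.42 ± 0.13 did not pass (adjusted p = 0.178). The receptors Crhr1 and Crhr2 had 10 and 11 reads over all libraries.

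Of 5 somatostatin receptors only Sstr3 passed the filter, with 382 reads in all. Its log2 fold change was 0.54 ± 0.24 at 35 against 11.8 mM (adjusted p = 0.407) and -0.06 ± 0.25 at 20 against 11.8 mM (adjusted p = 0.977), while Sstr1, Sstr2, Sstr5 and Sstr4 had 16, 13, 12 and 0 reads in all. Among the neuropeptide Y family, the ligand gene Npy stood at 0.29 ± 0.21 at 35 mM (adjusted p = 0.719), and the receptors Npy2r, Npy4r, Npy5r and Npy6r each had 0 reads and Npy1r 10. None of the 4 genes of the ghrelin axis was tested, and Ghrl had 47 reads. Of 6 Ptprz1 ligands and relatives 4 were tested, with Cntn1, contactin 1, at 0.74 ± 0.28 at 35 mM (adjusted p = 0.313) and Nrcam, an adhesion molecule, at 0.82 ± 0.32 at 20 mM (adjusted p = 0.470). Of 7 genes of the SPARC family 6 were tested. Spock2, testican 2, stood at 0.41 ± 0.14 at 35 mM (adjusted p = 0.250, and 0.0353 without 11.8 mM replicate 1), and Fstl1, a follistatin-like protein, at -0.75 ± 0.28 (adjusted p = 0.292).

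**Figure D5:**
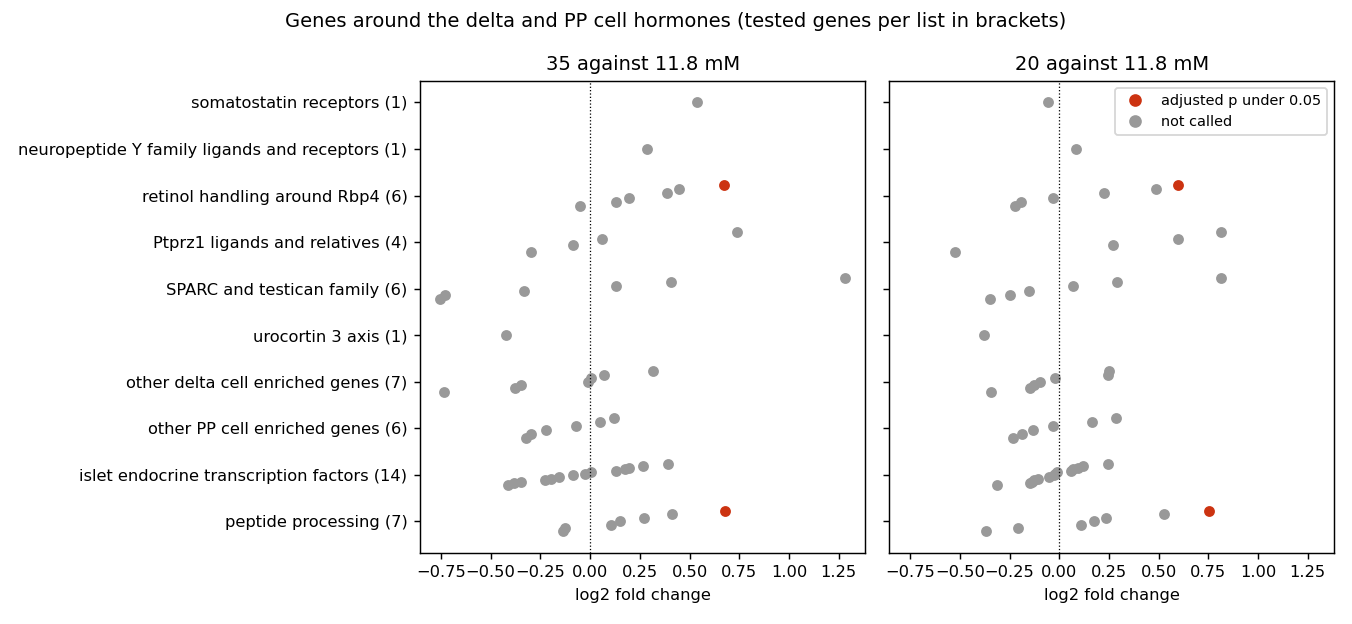
Log2 fold change of each tested gene of the functional lists at 35 (left) and 20 mM (right) against 11.8 mM, 1 point per gene and 1 row per list, with the number tested in brackets; red marks an adjusted p under 0.05 by edgeR. The red points are Ttr and Pcsk1 in both panels.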

How the data were processed

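The authors deposited read counts for each gene in each sub-library. The submitters' processing notes name cutadapt, TopHat, HTSeq, DESeq2 and the build GRCm38.p4. No version, annotation or strand setting is given there. Libraries were made with CEL-Seq2, which tags transcript 3' ends, from 3 ng of RNA, per the labels' protocols. The counts were not collapsed by molecular identifier: 16 genes exceeded the 4096 possible identifiers.

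The 27 sub-libraries were summed to 9 libraries through the deposited sample sheet; 30 columns of other tables could not be tied to samples and were not used. Spike-ins (92) and 5 summary lines, which held 19.6% to 29.9% of counted reads, were left out. Tests used edgeR 4.0.16 in R 4.3.3 (TMM, filterByExpr, robust quasi-likelihood, 6 residual degrees of freedom) over 9 libraries, adjusted over 9739 genes, and were checked on simulated data. An exact permutation test of 3 against 3 cannot go below 0.1. Members and lists were chosen with earlier results of these data known. All members are named, with up to 4 called genes of each list, or, in lists with no call, the 2 of lowest p, and the 3 genes most like each member above 10 CPM. Some genes that this rule names are not reported here. Alternatives were DESeq2 1.42.0 size factors and test, no filter, 10 CPM in 3 libraries, removal of the 20 most abundant genes or of Ins1 and Ins2, the replicate number as a block, 2 concentrations only, and each library left out. Removal of 2 sub-libraries, and each sub-library set alone, were added after the data were seen.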

Additional observations from a re-analysis of the deposited data

How the results depend on the processing

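Over 21 settings, 21 member fold changes gave 393 alternative values, of which 368 kept their sign and 25 turned it; 0 members were called under any of them, and the smallest adjusted p was 0.263 (Rbp4 at 35 against 11.8 mM without 11.8 mM replicate 1). Rbp4 kept its sign throughout, from -0.42 to -0.18 at 35 against 11.8 mM. None of the values that turned sign was called. With 1 library left out, log2 fold changes that turned sign in at least 1 setting ranged as follows. At 35 against 11.8 mM Sst ran from -0.022 to 0.28, Ppy from -0.13 to 0.25, Pyy from -0.19 to 0.15 and Ptprz1 from -0.34 to 0.15. At 20 against 11.8 mM Sst ran from -0.060 to 0.25, Hhex from -0.26 to 0.15, Casr from -0.28 to 0.13, Pyy from -0.098 to 0.24 and Ptprz1 from -0.074 to 0.42. At 35 against 20 mM Sst ran from -0.035 to 0.10 and Pyy from -0.21 to 0.0014. Without the 2 sub-libraries Hhex was 0.022 at 20 against 11.8 mM. From the first sub-library of each sample alone Casr was 0.10 at 20 against 11.8 mM and -0.052 at 35 against 20 mM, from the second -0.26 at 35 against 11.8 mM, and from the third 0.11 at 20 against 11.8 mM, with Ppy at 0.069 (35 against 11.8 mM) and Pyy at -0.0040 (20 against 11.8 mM). The causes were not tested.

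The count of genes called at 35 against 11.8 mM, 84, was 148 without the filter, 12, 42 and 39 from single sub-library sets, and 41 to 138 with 1 library left out (41 without 35 mM replicate 1). At 20 against 11.8 mM the count of 18 was 51 without the filter, 57 with the DESeq2 test, 11 with only these concentrations, 2 and 8 from the first and second sets, and 7 to 35 with 1 library left out. At 35 against 20 mM the count of 3 was 1 in each set and 1 to 7 with 1 library left out. For any difference the count of 59 was 126 without the filter, 90 with DESeq2, 8, 29 and 32 from the sets, and 34 to 75 with 1 library left out. Single sets hold fewer reads.

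Same-numbered libraries had correlations of -0.157 to 0.046 in their deviations from group means. These values show no strong pairing by replicate number, but they cannot exclude a weak one. With the replicate block 74, 13, 3 and 51 genes were called in these 4 comparisons, 0 members, and Rbp4 stood at -0.32 at 35 against 11.8 mM. The call of Ttr at 20 against 11.8 mM was lost under the block (adjusted p = 0.109), with DESeq2 size factors (0.0517), with the 10 CPM filter (0.0554) and with 2 concentrations only (0.141). Of 333 alternative values of 17 values of related genes, 307 kept their direction and side of the threshold, and 3 turned sign, all of Sstr3 at 20 against 11.8 mM (-0.16 to 0.095 with 1 library left out, 0.44 from the second sub-library set). In 22 a call of Ttr or Pcsk1 was lost: 11 with 1 library left out, 7 in single sub-library sets and the 4 just given. In 1 (Spock2) a call was gained. Depth limits Hhex, Ptprz1, Ghsr and Spock3, with 115, 84, 4 and 8 reads in all.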
